A study of Homo sapiens with 191 samples.

Results

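GC-poor promoter regions were the accessible regions of GM12878 cells that lay next to a transcription start site (TSS) but had little G and C in their own sequence. They were taken from a list of 50000 accessible regions, of 1 fixed width of about 500 bp, each centred on a summit of the ATAC-seq signal. A region was a promoter region where its centre stood no more than 1 kb from any TSS annotated for protein-coding genes, and it was GC-poor where its own hg19 sequence was under 50% G and C. Of the 50000 regions, 16365 were promoter regions and 2197 of these were GC-poor (13.4%, exact binomial 95% interval 12.9 to 14.0). They were set against the 9658 GC-rich promoter regions, of 60% GC or more (59.0%, interval 58.3 to 59.8). The 4510 promoter regions in between made up the other 27.6%.

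The libraries came from unstained GM12878, an established lymphoblastoid line of B cell origin that Epstein-Barr virus had transformed. After fixation and permeabilisation, transposition was done in bulk, and single cells were then sorted into the wells of plates. There were 96 libraries on plate 1 and 95 on plate 2, all of 1 group and 1 genotype, with no treatment and no second cell type. The authors called the regions on the pooled cells, so the list carries neither values per cell nor replicates nor a read depth. Whether cells that failed the authors' later filter on single cells were in that pool was not given in the sources used here. Regions are not replicates of a condition, and all intervals cover counting error only. Promoter regions were found at 8 of 10 B cell markers (MS4A1, BLK, BTK and BLNK had GC-poor ones), 1 of 6 T cell markers, 2 of 6 myeloid markers and 0 of 4 erythroid markers. Of all 20098 protein-coding genes, 11503 had a promoter region and 1938 (9.64%) a GC-poor one.

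Most human promoters lie in CpG islands, stretches of high GC content in which CpG dinucleotides have been kept and are usually unmethylated. Such promoters serve housekeeping and developmental genes and are open in most cell types. Promoters of low CpG content more often belong to genes used by one tissue, carry a TATA box at a fixed distance upstream of the TSS more often, and tend to be methylated and closed where the gene is silent. In leukocytes, many genes for surface receptors, cytokines and signalling proteins have promoters of the CpG-poor kind.

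The sequences around the TSS show what the GC-poor class held. Each line below runs 5′ to 3′ on the coding strand, from 120 bases before the TSS nearest the region to 30 bases after it, and was read from GRCh37. The following 4 belonged to the strongest GC-poor regions centred within 100 bp of a TSS and without a TATA match, and CpG dinucleotides are in capitals. They lay at ASPM, a protein of the mitotic spindle poles (chr1:197115794-197115944, minus strand), SMIM30, which encodes a small membrane protein (chr7:112758585-112758735, minus strand), PIK3C3, the class III phosphoinositide 3-kinase of autophagy (chr18:39535079-39535229, plus strand), and STK17B, a serine/threonine kinase of the death-associated family (chr2:197041021-197041171, minus strand).
ASPM: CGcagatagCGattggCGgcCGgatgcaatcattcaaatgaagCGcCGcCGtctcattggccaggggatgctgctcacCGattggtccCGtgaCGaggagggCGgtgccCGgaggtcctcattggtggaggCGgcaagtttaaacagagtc
SMIM30: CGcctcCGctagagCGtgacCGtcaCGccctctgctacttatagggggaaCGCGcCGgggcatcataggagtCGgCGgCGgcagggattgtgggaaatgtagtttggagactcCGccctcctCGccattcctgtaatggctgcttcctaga
PIK3C3: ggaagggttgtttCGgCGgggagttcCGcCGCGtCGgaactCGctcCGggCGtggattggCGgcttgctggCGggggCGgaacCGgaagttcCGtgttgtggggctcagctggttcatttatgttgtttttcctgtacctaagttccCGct
STK17B: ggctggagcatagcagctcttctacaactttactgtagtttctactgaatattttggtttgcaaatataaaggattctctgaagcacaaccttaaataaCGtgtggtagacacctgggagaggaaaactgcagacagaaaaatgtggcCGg

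ASPM, SMIM30 and PIK3C3 carried 13, 13 and 15 CpG dinucleotides in these windows, which were 60.3%, 60.9% and 60.9% GC. The regions around them were GC-poor over their whole width, at 48.9%, 45.5% and 49.1%. STK17B was of another kind, with 2 CpG dinucleotides and 41.7% GC in the window. For comparison, the 2 strongest GC-rich promoter regions centred within 100 bp of a TSS lay at PDCD10 (chr3:167452697-167452847, minus strand) and KBTBD3 (chr11:105948156-105948306, minus strand), again with CpG in capitals.
PDCD10: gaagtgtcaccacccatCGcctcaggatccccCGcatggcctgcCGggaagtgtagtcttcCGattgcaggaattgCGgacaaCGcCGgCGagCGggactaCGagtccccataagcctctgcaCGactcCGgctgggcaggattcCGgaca
KBTBD3: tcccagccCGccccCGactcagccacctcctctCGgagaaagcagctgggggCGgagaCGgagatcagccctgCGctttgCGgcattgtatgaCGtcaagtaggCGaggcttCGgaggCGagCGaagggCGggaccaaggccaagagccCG

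These GC-rich windows held 13 and 14 CpG dinucleotides, close to the counts at ASPM and SMIM30. The next 5 were taken from the 7 GC-poor regions within 100 bp of a TSS that had a TATA match, which is in capitals. A match was TATAAA, or TATA followed by A or T, then A, then A or T, starting 45 to 15 bases before the TSS on the coding strand. They belonged to TASL, an adaptor that links endolysosomal Toll-like receptors to IRF5 (chrX:30595853-30596003, minus strand), ARGLU1, a splicing regulator (chr13:107214269-107214419, minus strand), GPR15, a homing receptor of lymphocytes (chr3:98250702-98250852, plus strand), RGS1, a regulator of G protein signalling in lymphocytes (chr1:192544785-192544935, plus strand), and C7, a component of the terminal complement complex (chr5:40909474-40909624, plus strand).
TASL: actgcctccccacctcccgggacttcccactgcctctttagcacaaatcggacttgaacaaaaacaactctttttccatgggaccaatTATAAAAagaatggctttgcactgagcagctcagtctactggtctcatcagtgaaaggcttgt
ARGLU1: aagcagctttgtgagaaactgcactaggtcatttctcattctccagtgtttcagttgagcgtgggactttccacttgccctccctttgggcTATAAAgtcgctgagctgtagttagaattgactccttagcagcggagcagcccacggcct
GPR15: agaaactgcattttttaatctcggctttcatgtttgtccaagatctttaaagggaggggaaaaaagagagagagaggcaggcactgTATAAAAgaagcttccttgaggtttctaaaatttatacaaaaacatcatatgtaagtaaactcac
RGS1: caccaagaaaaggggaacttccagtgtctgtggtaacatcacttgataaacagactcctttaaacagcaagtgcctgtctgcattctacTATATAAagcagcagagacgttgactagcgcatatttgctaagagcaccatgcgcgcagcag
C7: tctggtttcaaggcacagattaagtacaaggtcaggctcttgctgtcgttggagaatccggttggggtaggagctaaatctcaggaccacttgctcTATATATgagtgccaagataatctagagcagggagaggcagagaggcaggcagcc

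The match started 32 bases before the TSS at TASL, 29 at ARGLU1, 34 at GPR15, 31 at RGS1 and 24 at C7. The score of a region, the authors' -log10 of its q-value, was 149.5 at TASL, 113.99 at ARGLU1 and 64.3 at GPR15, but 24.3 at RGS1 and 18.7 at C7. The lowest score in the list was 16.0, so RGS1 and C7 were near its limit.

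GC-poor promoter regions were weaker than GC-rich ones. Their median score was 28.6 (95% interval 27.2 to 30.1, quartiles 20.0 and 52.4), against 91.3 for GC-rich promoter regions (85.8 to 95.0, quartiles 36.2 and 251.01). The highest score of any GC-poor promoter region was 922.7, which was rank 724 in the list, and the highest of any GC-rich one was 4437.6. In the top quartile of the list stood 17.3% of GC-poor (15.8 to 19.0) and 55.2% of GC-rich promoter regions (54.3 to 56.2). The bottom quartile held 26.9% of GC-poor (25.1 to 28.9) and 7.92% of GC-rich ones (7.39 to 8.48). Among the 1000 strongest regions, 5 were GC-poor and 703 were GC-rich promoter regions. The GC-poor share of promoter regions was 0.547% among the 1000 strongest regions, 2.26% among the 5000 strongest, 3.93% among the 10000 strongest and 8.69% among the 25000 strongest.

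The score did not simply follow GC content. Below 40% GC the median score was 22.8, between 40 and 45% it was 27.2 (n = 675), and between 45 and 50% it was 31.6 (n = 1358). It was 44.2 between 50 and 55% and 67.8 between 55 and 60%, and was highest between 65 and 70%, at 100.6. Promoter regions of 75% GC or more had a median of 54.1 (n = 900). Values just inside and just outside the limits were as follows. The 58 GC-poor regions just inside the limit, at 49.9% GC, had a median score of 33.9 and a median distance to the TSS of 392 bp, and the 58 regions just outside it, at 50.1%, had 30.1 and 283 bp. At the upper limit, the regions at 60.1% GC had a median score of 119.8 and those at 59.9% had 87.6. At the edge of the promoter window, the farthest GC-poor member lay 999 bp from its TSS with a score of 66.1, and the 2 GC-poor regions left out at 1001 bp had scores of 18.7 and 25.7.

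**Figure D1:**
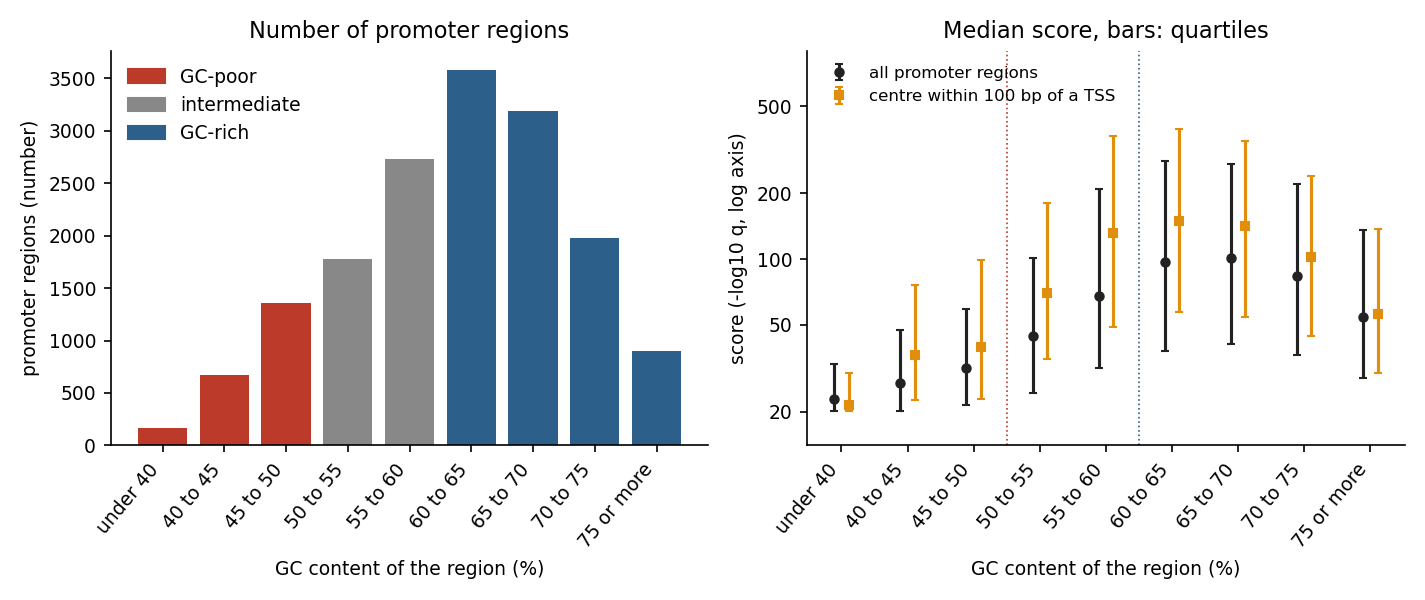
Number of promoter regions (left) and their median score with quartiles as bars (right, log axis, -log10 q) by GC content of the region in percent. Squares are regions centred within 100 bp of a TSS, and dotted lines mark the limits of 50% and 60% GC. The median score was 22.8 below 40% GC, 100.6 between 65 and 70% and 54.1 at 75% or more.

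GC-poor regions also lay farther from the TSS. The median distance of the centre from the nearest TSS was 461 bp (437 to 484, upper quartile 699), against 88 bp for GC-rich promoter regions (86 to 91, upper quartile 197). Only 386 GC-poor regions (17.6%, 16.0 to 19.2) were centred within 100 bp of a TSS, against 5244 GC-rich ones (54.3%, 53.3 to 55.3). More than 500 bp away lay 46.7% of GC-poor (44.6 to 48.8) and 8.49% of GC-rich regions (7.94 to 9.06). GC-poor centres were downstream of the TSS in 51.4% of cases (49.3 to 53.5), and GC-rich ones in 36.7% (35.8 to 37.7).

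**Figure D2:**
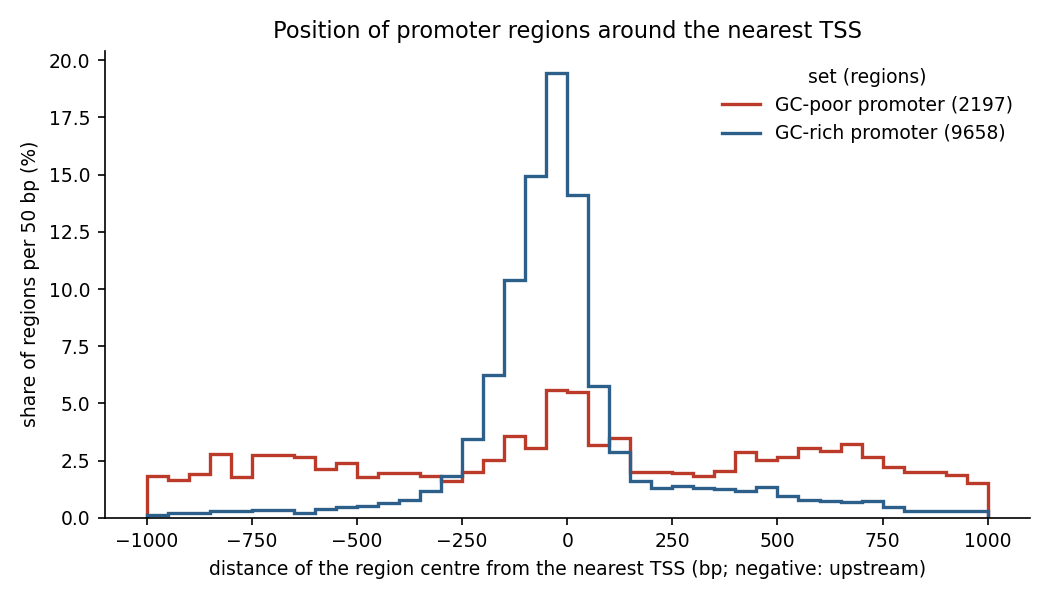
Share of regions (%) in bins of 50 bp by the distance of the region centre from the nearest TSS, with negative values upstream, for GC-poor and GC-rich promoter regions. GC-poor regions spread over the whole window, with 17.6% within 100 bp, while 54.3% of GC-rich regions lay there.

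The difference in score was present at each distance. Within 100 bp of the TSS the median score was 37.8 for GC-poor (33.1 to 42.5, n = 386) and 121.7 for GC-rich regions (115.9 to 127.6, n = 5244). From there to 500 bp it was 28.6 (27.2 to 31.6, n = 786) against 73.1 (69.6 to 76.7, n = 3594), and from 500 to 1000 bp it was 27.2 (25.7 to 28.6, n = 1025) against 39.4 (36.2 to 42.5, n = 820). Farther from the TSS, GC-poor regions were more like GC-poor regions of the list that lay beyond 1 kb. These 20544 distal GC-poor regions had a median score of 24.3.

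The TSS beside a GC-poor region was often an inner one. The nearest TSS was the outermost 5′ end of its gene for 25.8% of GC-poor (24.0 to 27.7) and 45.9% of GC-rich regions (44.9 to 46.9). It was the TSS of the Ensembl canonical transcript for 16.2% (14.7 to 17.8) and 34.5% (33.5 to 35.4). It started a transcript annotated as protein-coding for 59.9% of GC-poor (57.8 to 62.0) and 75.0% of GC-rich regions (74.1 to 75.9), and otherwise another transcript of a protein-coding gene, such as a retained intron. Within 100 bp of the TSS the outermost share was 21.0% for GC-poor (17.0 to 25.4) and 44.6% for GC-rich regions (43.3 to 46.0). TSSs of different genes on opposite strands, in any order, were in the window of 7.51% of GC-poor (6.44 to 8.69) and 12.3% of GC-rich regions (11.7 to 13.0).

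For many members the TSS itself stood in GC-rich sequence. The 500 bp around the nearest TSS were under 50% GC for 1196 of the 2197 members (54.4%) and at 60% or more for 551 (25.1%). The first of these groups lay at a median of 217.5 bp from the TSS and had a median CpG observed over expected of 0.274. The 551 members beside a GC-rich TSS lay at a median of 687 bp, none of them within 100 bp, with a CpG ratio of 0.482. Their median scores were 28.6 (27.2 to 31.6) and 27.2 (25.7 to 28.6), so the intervals overlapped.

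GC-poor regions had close neighbours in the list, some of them GC-rich. Another region of the list was centred within 1000 bp of 55.2% of GC-poor promoter regions (53.1 to 57.3) and of 42.8% of GC-rich ones (41.8 to 43.8). For 589 GC-poor members (26.8%, 25.0 to 28.7) a GC-rich promoter region was centred within 1000 bp, and in 549 of these 589 pairs (93.2%) the GC-rich region had the higher score. The median score was 28.6 for the GC-poor and 369.0 for the GC-rich regions of these pairs. The 589 members lay at a median of 589 bp from the TSS, and the 1608 members with no GC-rich promoter region so near lay at 390.5 bp. Both groups had a median score of 28.6. Of the 386 members within 100 bp of a TSS, 350 had no GC-rich promoter region within 1000 bp, and their median score was 37.8 (33.1 to 44.2).

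By CpG content, the GC-poor promoter regions fell between GC-rich promoter regions and distal GC-poor regions. Their median GC content was 46.1% and the lowest was 31.1%, against a median of 66.9% for GC-rich promoter regions. They held a median of 9 CpG dinucleotides, and GC-rich ones 45. The ratio of observed to expected CpG, which corrects for GC content, had a median of 0.349, against 0.828 in GC-rich promoter regions, and it was 0.198 in distal GC-poor regions. A ratio of at least 0.6, a common criterion of CpG islands, was reached by 377 members (17.2%, 15.6 to 18.8) and by 90.9% of GC-rich regions. These 377 had a median score of 36.2 (31.6 to 42.5), against 27.2 (27.2 to 28.6) for the 1820 members with a lower ratio. Among the lowest, 468 members had a ratio under 0.2 and a median score of 25.7 (24.3 to 28.6).

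The GC content of GC-poor regions was not even along the region. In members centred within 100 bp of a TSS the sequence within 50 bp of the centre averaged 50.9% GC and the outermost 51 bp on each side 41.5%. In members farther away these values were 48.1% and 42.8%. GC-rich promoter regions were nearly flat, at 68.4% in the centre and 65.4% at the edges, and distal GC-poor regions had 49.8% and 41.2%. Members within 100 bp of a TSS had 2.72 CpG dinucleotides per 100 bp in the centre and 1.62 at the edges, against 9.59 and 8.33 in GC-rich promoter regions. Within 100 bp of the centre, 785 members (35.7%) reached 50% GC.

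**Figure D3:**
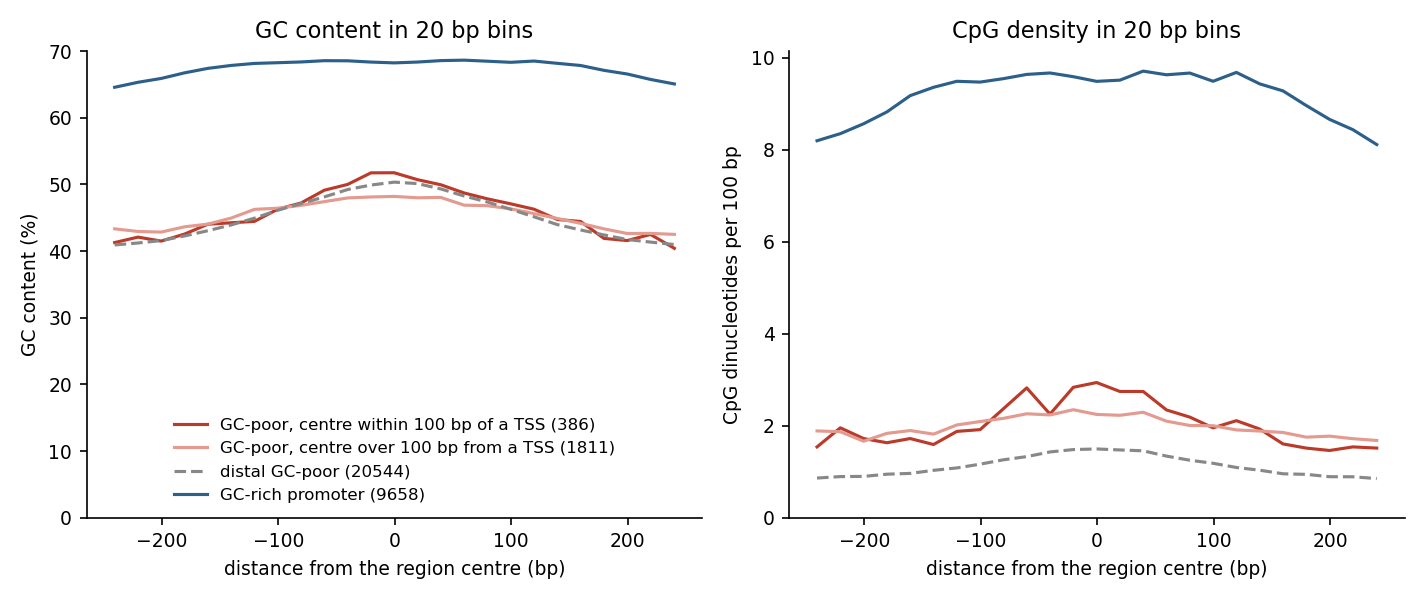
Mean GC content in percent (left) and CpG dinucleotides per 100 bp (right) in bins of 20 bp against the distance from the region centre in bp, for GC-poor promoter regions near to and farther from a TSS, distal GC-poor regions and GC-rich promoter regions. The sequence within 50 bp of the centre of GC-poor regions near a TSS averaged 50.9% GC and the edges 41.5%, against 68.4% and 65.4% in GC-rich promoter regions.

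TATA matches were rare in both classes. The nearest TSS had a match in 48 of 2197 GC-poor regions (2.18%, 1.62 to 2.89), in 1.06% of GC-rich ones (0.862 to 1.28), and in 1.77% of all 146299 TSSs of protein-coding genes. In a window of equal length 100 bases further upstream the shares were 0.819% for GC-poor, 0.124% for GC-rich regions and 0.980% for all TSSs. Within 100 bp of a TSS the share was 1.81% in GC-poor regions (7 of 386, 0.732 to 3.70) and 0.992% in GC-rich ones, and the intervals overlapped. The matches of the 48 members started at a median of 31 bases before the TSS (quartiles 30 and 33), and 34 of the 48 started between 34 and 28 bases before it. In the GC-rich regions with a match the median was 30 bases (quartiles 29 and 31).

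The 48 members with a TATA match had a median score of 27.2 (21.4 to 44.2), and the 2149 without one 28.6 (27.2 to 30.1). The 2 strongest lay at inner, non-coding transcripts of POLI, a translesion DNA polymerase (score 840.8, 570 bp downstream of the TSS), and SGCE, a sarcoglycan (444.7, 423 bp upstream). Histone genes accounted for 9 of the 48, among them H2AC14 (119.8), H4C1 (83.9), H2BC3 (76.7), H2AC13 (45.8) and H3C2 (39.4). Immune genes in this group included TASL, with scores of 149.5 and 67.8 at 2 regions, SP140, a nuclear body protein of leukocytes (40.9), IL12B, the p40 subunit of interleukin-12 and interleukin-23 (27.2), and IRF4, a transcription factor of the plasma cell programme (16.0, at the limit of the list). The genes of this paragraph other than POLI, SGCE, TASL and the list members were chosen after their values were seen.

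The 15 strongest members were a mixed group. At their head stood CAMK2D, a calcium/calmodulin-dependent kinase, with a score of 922.7 at chr4:114683619-114684119, 786 bp upstream of its TSS. ASPM followed with 864.5 at chr1:197115658-197116158, 84 bp upstream. ABCB4, a phospholipid translocator, had 856.6 at chr7:87103909-87104409, 565 bp downstream of the TSS of an inner transcript, and the POLI region was chr18:51811294-51811794. SMIM30 (775.5, chr7:112758423-112758923) and PIK3C3 (723.7, chr18:39534878-39535378) had CpG ratios of 1.04 and 0.978, above the GC-rich median. FUBP1, a DNA-binding regulator of transcription, had 616.9 at chr1:78443835-78444335, within 1 kb of a TSS of DNAJB4 as well.

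STK17B had a score of 614.3 at chr2:197040762-197041262, with its centre 39 bp downstream of an inner TSS and a CpG ratio of 0.335. It was followed by FBXO9, an F-box protein (539.6), ARHGAP15, a RAC GTPase-activating protein of leukocytes (510.1, ratio 0.234), ANXA2R (466.3, ratio 1.05), ACTR6, an actin-related protein of a chromatin remodelling complex (454.3, ratio 1.05), and ST3GAL1, a sialyltransferase (451.9, ratio 0.162). RIOK2, a kinase of small ribosomal subunit maturation, and SGCE each had 444.7. Of these 15 members, FBXO9, ANXA2R, ACTR6, RIOK2, SMIM30, PIK3C3, ASPM, CAMK2D and FUBP1 had a CpG ratio over 0.6, and the others lay between 0.0756 and 0.337.

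The lowest GC contents within 100 bp of a TSS belonged to weaker regions. They were found at ST7 (33.9% GC, score 20.0), TBL1XR1, a subunit of nuclear corepressor complexes (36.7%, 18.7), TLR10, a Toll-like receptor (37.3%, 16.0), CHD9, a chromatin remodeller (37.5%, 67.8), and CSRNP3 (37.5%, 21.4). Each of these 5 was at an inner TSS. CHD9 stood above the others, with its centre 5 bp from the TSS.

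By gene, 1938 of 20098 protein-coding genes had at least 1 GC-poor promoter region (9.64%) and 8848 had a GC-rich one (44.0%). The 2197 regions and 1938 genes do not map one to one, since 199 members had more than 1 gene within 1 kb. All promoter regions were GC-poor at 384 genes (1.91% of 20098) and GC-rich at 5993, and 8595 genes (42.8%) had no promoter region in the list. At 1202 genes GC-poor and GC-rich regions stood together, and 62.8% of GC-poor members (60.7 to 64.8) were at a gene that also had a GC-rich promoter region. For GC-rich regions, 41.2% (40.2 to 42.2) were at a gene with another GC-rich one. Genes with a GC-poor region had a median span of 58.7 kb and 8 annotated TSSs, against 38.4 kb and 7 for genes with a GC-rich region and 27.3 kb and 5 for all protein-coding genes. The 384 genes with only GC-poor regions had a median span of 59.9 kb and 5 TSSs.

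Several GC-poor regions stood at 364 genes. ARHGDIB, an inhibitor of nucleotide exchange on small GTPases that is abundant in leukocytes, had 7 GC-poor regions on chromosome 12 and no other promoter region. Their scores were 49.1, 27.2, 47.4, 22.8, 40.9, 163.8 and 21.4 in genomic order. The 163.8 region, chr12:15114194-15114694, was centred 81 bp downstream of an inner TSS and stood above the other 6.

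BCL2, an inhibitor of apoptosis, had 7 GC-poor, 3 GC-rich and 1 intermediate region. The 3 GC-rich regions, around its 5′ end, had scores of 93.2, 62.6 and 78.5. The 7 GC-poor regions lay at inner TSSs of shorter transcripts, with scores of 28.6, 108.2, 25.7, 64.3, 135.5, 352.7 and 331.9 in genomic order. The strongest, chr18:60828831-60829331, was centred 21 bp downstream of a TSS, and 4 of the 7 exceeded every GC-rich region of the gene. Other leukocyte genes with several GC-poor and no GC-rich regions were CYTIP, an adaptor of haematopoietic cells (33.1, 66.1, 145.5 and 44.2), CD86, a costimulatory ligand of antigen-presenting cells (39.4, 34.7 and 27.2), TLR1 (37.8, 20.0, 78.5 and 30.1) and CD226, an adhesion receptor (129.6, 25.7, 16.0 and 131.6). RHOH, a small GTPase of haematopoietic cells, had 5 GC-poor regions between 18.7 and 78.5 and 2 intermediate ones of 127.6 and 209.8, and HAVCR2, an inhibitory receptor, had 4 between 20.0 and 106.3 beside an intermediate one of 552.0. These genes were chosen after their values were seen.

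Among 24 gene lists, that of leukocyte surface and signalling genes held the largest share of genes with a GC-poor promoter region, and histone genes came next. The lists were chosen with earlier results of these data known. In the leukocyte list a GC-poor region was found at 30 of 68 genes (44.1%, 32.1 to 56.7), against 9.64% of all protein-coding genes. GC-rich regions were found at 22 of the 68 (32.4%, 21.5 to 44.8), against 44.0% of all genes. Over the strongest region of each gene with a GC-poor one, the median score was 42.6 in this list and 31.6 in all genes. The strongest were at ARHGDIB (163.8), LCP1, an actin-bundling protein of leukocytes (155.6, chr13:46755948-46756448), CYTIP (145.5, chr2:158300232-158300732) and PLCG2, the phospholipase C of B cell receptor signalling (112.1, chr16:81844376-81844876, centred 4 bp from an inner TSS). In 13 of the 68 genes every promoter region was GC-poor.

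Genes of B cell identity and the B cell receptor had a GC-poor promoter region in 10 of 35 cases (28.6%, 14.6 to 46.3), against 9.64% of all genes. A GC-rich one was found in 12 cases (34.3%, 19.1 to 52.2), against 44.0% of all genes. With GC limits of 45% and 65%, 1 of the 35 had a GC-poor region (2.86%), against 4.08% of all genes, so the list was no longer above all genes. With the outermost TSS of each gene it was 4 of the 35 (11.4%), against 5.23%. MS4A1, which encodes CD20, had a score of 106.3 at chr11:60222933-60223433, upstream of its outermost TSS. BLK, a SRC family kinase, had 89.4 at chr8:11351891-11352391, BLNK, the adaptor of the B cell receptor, 76.7 at chr10:98031002-98031502, and IKZF1, the transcription factor Ikaros, 59.2 at chr7:50366955-50367455. FCRLA (45.8), FCER2, the low-affinity IgE receptor (44.2), BTK (33.1), SYK (31.6), POU2AF1, a B cell coactivator of octamer factors (30.1), and FCRL5 (22.8) completed the list. The strongest region of each of the 10 genes lay at a median of 136.5 bp from the TSS, against 450 bp over all genes with a GC-poor region.

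Cytokine and chemokine signalling was represented by receptors and by ligands. A GC-poor region was found at 14 of 57 chemokine and cytokine receptor genes (24.6%, 14.1 to 37.8), against 9.64% of all protein-coding genes. Of 51 chemokine and cytokine genes 6 had one (11.8%, 4.44 to 23.9), near the 9.64%, which lay within this interval. The intervals of receptors and ligands overlapped. With GC limits of 45% and 65% a GC-poor region was found at 2 of the 57 receptor genes (3.51%) and 2 of the 51 ligand genes (3.92%). The share over all genes was 4.08% there, so neither list was above it. IL21R, the receptor of interleukin-21, had the highest score of either list, 244.4 at chr16:27437642-27438142, 673 bp upstream of an inner TSS. CXCR3 had 89.4, CCR6, a homing receptor of B cells, 85.8 and IFNGR1 55.8. Among ligands, CCL20, which binds CCR6, had 47.4, IL16 44.2, TNFSF13B, the B cell survival factor BAFF, 39.4 and TNFSF4 28.6.

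Of 64 interferon-stimulated genes 15 had a GC-poor region (23.4%, 13.8 to 35.7), against 9.64% of all protein-coding genes, with a median score of 47.4. PMAIP1, a pro-apoptotic BH3 protein, had 159.7 at 876 bp from the TSS, IFIT3 113.99 and TRIM22 98.8 at 31 bp. Toll-like receptors and adaptors had one at 5 of 20 genes (25.0%, 8.66 to 49.1), with LY96 at 108.2, TLR1 at 78.5, TLR10 at 21.4 and TLR2 at 17.3. In the MHC list it was 3 of 25 (12.0%, 2.55 to 31.2), near the share over all genes, namely CD74, the invariant chain (89.4), HLA-DMB (39.4) and HLA-DPB1 (20.0). The intervals of the Toll-like receptor and MHC lists both held the 9.64% of all genes.

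Lists of other lineages had few, and most of their genes had no promoter region of any class in the list of regions. That held for 30 of 40 T cell and NK cell genes, 25 of 29 myeloid, 22 of 25 hepatocyte and 386 of 399 olfactory receptor genes, against 42.8% of all protein-coding genes. Of the genes with a promoter region, a GC-poor one was found at 30.0% in the T cell and NK cell list (3 of 10). It was 25.0% in the myeloid (1 of 4), 33.3% in the hepatocyte (1 of 3) and 76.9% in the olfactory receptor list (10 of 13). The HOX list had 20.0% (1 of 5), the neuronal list 11.1% (1 of 9), and the erythroid, keratin and taste receptor lists 0 of 2 each. By the same measure the share was 16.8% over all genes, 56.6% in the leukocyte list (30 of 53) and 43.5% in the B cell list (10 of 23). The shares below are of all genes of a list. T cell and NK cell genes had a GC-poor region at 3 of 40 (7.50%, 1.57 to 20.4), among them CD28 (50.7) and GATA3 (18.7). The myeloid list had 1 of 29, LYZ (18.7), the hepatocyte list 1 of 25, CPS1 (16.0, in a region whose nearest TSS was that of LANCL1), the neuronal list 1 of 24 and HOX genes 1 of 39. None was found at 23 erythroid and megakaryocyte genes (upper limit of the interval 14.8%), the keratin genes (2.45%) or 27 taste receptor genes (12.8%). Olfactory receptor genes had one at 10 of 399 (2.51%, 1.21 to 4.56), against 0 of 399 with a GC-rich region, and these 10 regions had a median score of 20.7 and a highest score of 37.8, at OR52D1.

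**Figure D4:**
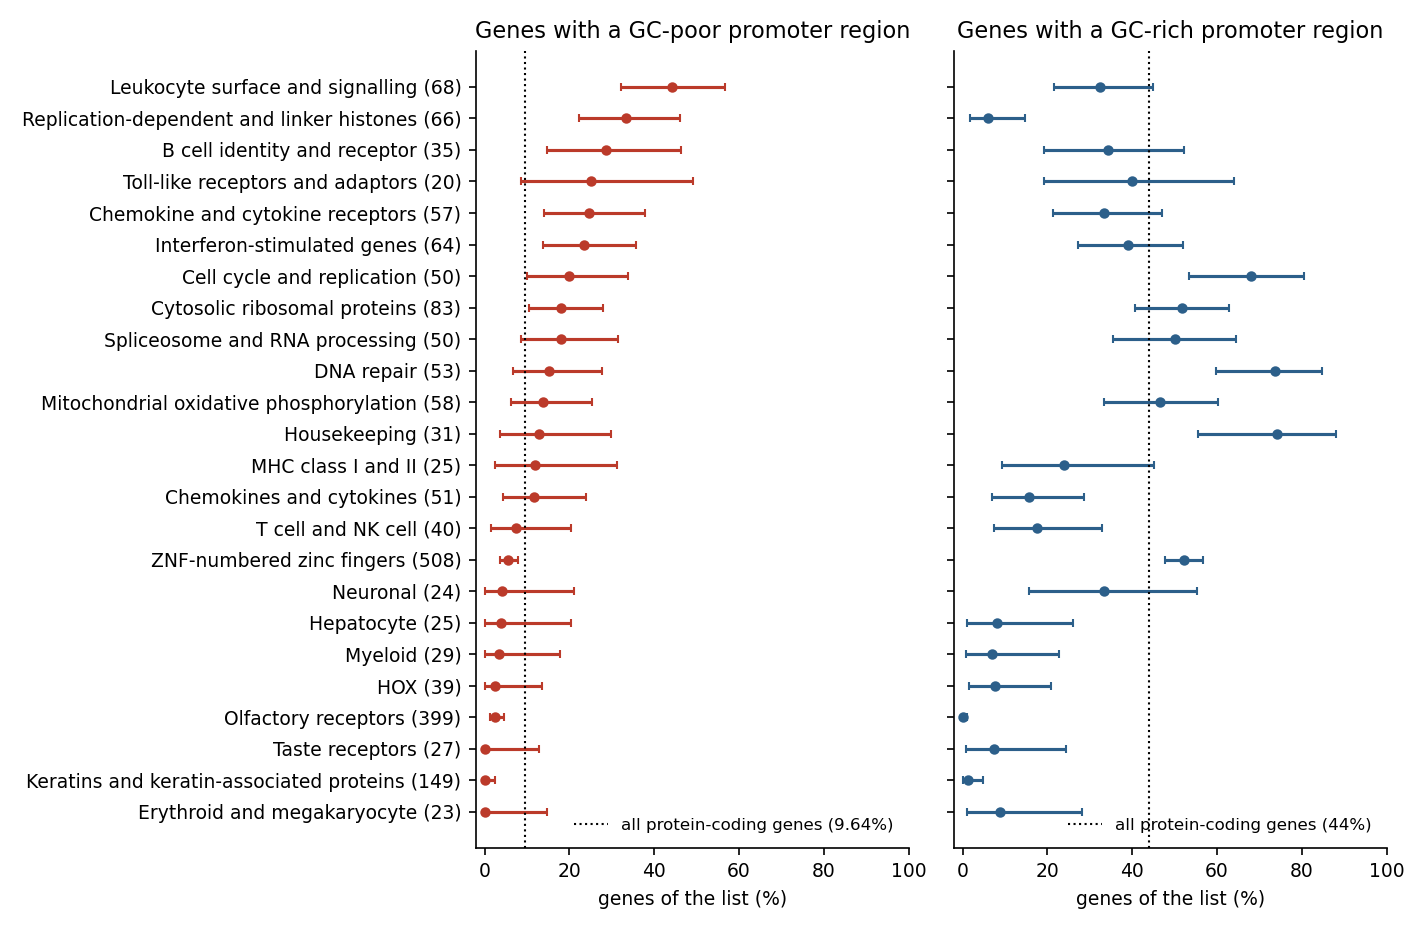
Percent of the genes of each list (number of genes in brackets) with a GC-poor promoter region (left) and with a GC-rich one (right), as points with exact binomial 95% intervals; the dotted line is the share over all protein-coding genes. Leukocyte surface and signalling genes stood at 44.1% on the left, against 9.64% over all genes, and housekeeping genes at 74.2% on the right, against 44.0%.

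In lists of general cell functions, more genes had a GC-rich than a GC-poor promoter region. Of their genes with a promoter region, a GC-poor one was found at 13.8% in the housekeeping, 20.4% in the cell cycle and 15.7% in the DNA repair list. It was 18.8% in the spliceosome, 14.5% in the oxidative phosphorylation and 7.43% in the ZNF list, against 16.8% over all genes. Housekeeping genes had a GC-poor region at 4 of 31 (12.9%, 3.63 to 29.8) and a GC-rich one at 23 (74.2%, 55.4 to 88.1), and none of the 31 had only GC-poor regions. Among the 4 were PGK1 (45.8), PPIA (33.1) and EEF1A1 (31.6). Cell cycle genes had one at 10 of 50, with SGO1, a protector of centromeric cohesion (205.6), CCNA2, cyclin A2 (80.3), BUB1 (71.3) and HMGB2 (34.7) at the head. DNA repair genes had one at 8 of 53, led by XRCC5 (163.8), genes of the spliceosome and RNA processing at 9 of 50, led by HNRNPA1 (331.9, in a region shared with CBX5), and nuclear genes of oxidative phosphorylation at 8 of 58, led by NDUFB6 (135.5). For numbered ZNF genes it was 28 of 508 (5.51%, 3.69 to 7.87), below the 9.64% of all genes, with ZNF19 (153.6), ZNF772 (143.5), ZNF639 (95.0) and ZNF189 (87.6) the strongest.

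Histone genes had GC-poor promoter regions of high CpG content. Of 66 replication-dependent and linker histone genes, which are transcribed in S phase, 22 had a GC-poor promoter region (33.3%, 22.2 to 46.0) and 4 a GC-rich one (6.06%, 1.68 to 14.8). Over all protein-coding genes these shares were 9.64% and 44.0%. A promoter region of any class was found at 54 of the 66, and genes with neither of the 2 classes had only intermediate ones. At 5 genes every promoter region was GC-poor. The strongest were H2AC6 and H2BC4, a divergent pair that shares 1 region (233.5, chr6:26123843-26124343), H2AC7 (214.1) and H4C3 (188.7). The CpG ratio of the 21 histone regions had a median of 0.728, and 16 of them reached 0.6. In the 56 regions of the leukocyte list the median was 0.240 and 1 reached 0.6, and in the 13 regions of the B cell list it was 0.207 and 0 reached 0.6, against 17.2% of all members. The nearest TSS had a TATA match at 9 of the 21 histone regions and 48 of all 2197. The 21 regions lay at a median of 476 bp from that TSS, and 1 of them was within 100 bp. Cytosolic ribosomal protein genes were in between by CpG ratio, with 7 of 18 regions at 0.6 or more. A GC-poor region was found at 15 of the 83 genes (18.1%, 10.5 to 28.0), against 9.64% of all genes. Of the 76 with a promoter region it was 19.7%, near the 16.8% over all genes by the same measure. The highest scores were at RPL41 (133.5), RPL35A (100.6), RPL37 (95.0) and RPL9 (73.1). Histone genes and ribosomal protein genes belong to families of similar sequence, and how reads that map to several copies were assigned was not given with the list.

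**Figure D5:**
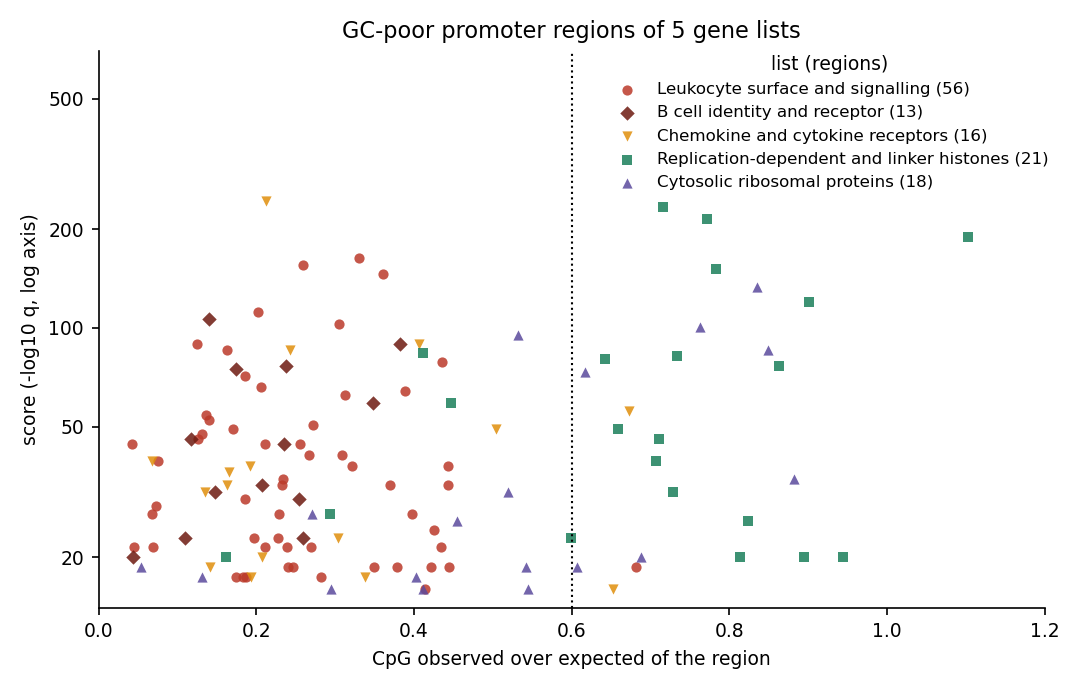
Score (-log10 q, log axis) against CpG observed over expected for the GC-poor promoter regions of 5 gene lists (number of regions in brackets); each point is a region and the dotted line marks 0.6. Of the histone regions 16 of 21 reached 0.6, against 1 of 56 in the leukocyte list and 0 of 13 in the B cell list.

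Consensus sequences were searched in the whole region on either strand. Matches are letters in a window and not sites, and matches of different motifs can overlap. The classes were defined by the GC content of the same sequence, so motifs rich in G and C or in A and T differ between them in part by that definition. Shares of GC-poor and GC-rich regions are therefore descriptions, and no expectation for their base composition was computed. The GC box GGGCGG of SP and KLF factors was present in 15.4% of GC-poor promoter regions (13.9 to 17.0), 89.2% of GC-rich ones, 68.9% of all promoter regions and 7.93% of distal GC-poor regions. The ETS consensus CCGGAAG was found in 3.96% (3.18 to 4.86) of GC-poor and 22.0% of GC-rich promoter regions, against 18.0% of all and 1.92% of distal GC-poor ones. NRF1, whose consensus is GCGCATGCG, had a match in 7 members (0.319%) and in 4.00% of GC-rich promoter regions, and the 7 members had a median score of 100.6 at a median distance of 53 bp. CCAAT, bound by NF-Y, was found in 47.9% of GC-poor (45.8 to 50.0) and 39.5% of GC-rich promoter regions, against 42.8% of all.

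Consensus sequences of factors with a role in lymphocytes were searched in the same way. The RUNX consensus TGTGGTT was present in 13.2% of GC-poor promoter regions (11.8 to 14.7), 3.68% of GC-rich ones, 6.07% of all promoter regions and 15.2% of distal GC-poor regions. The ISRE core, 2 copies of GAAA parted by any 2 bases, had 10.2% (8.92 to 11.5), 3.20%, 5.28% and 10.1% in the same order, the octamer ATGCAAAT 5.33% (4.42 to 6.35), 1.17%, 2.09% and 4.73%, and AP-1 (TGACTCA or TGAGTCA) 11.8% (10.5 to 13.2), 3.89%, 6.17% and 15.3%. The GATA consensus AGATAA, of factors of other lineages, was also more frequent in GC-poor than in GC-rich promoter regions, at 25.9% (24.0 to 27.7) and 4.78%, against 25.6% in distal GC-poor regions. Motifs of other B cell factors went both ways. PU.1/SPIB (GAGGAAGT) was found in 5.37% of GC-poor and 3.76% of GC-rich promoter regions. A composite of IRF and ETS had 14.9% and 10.1%, and MEF2 1.73% and 0.342%. In distal GC-poor regions these 3 motifs had 5.33%, 14.9% and 1.36%. EBF1 and NF-kB were less frequent in GC-poor than in GC-rich promoter regions. The EBF1 consensus, CCC and GGG parted by any 2 bases, was found in 10.5% (9.22 to 11.8) and 43.2%, against 10.9% in distal GC-poor regions, and NF-kB in 7.10% (6.06 to 8.26) and 13.8%, against 8.65%.

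The position of the matches within the region differed more between motifs. Matches per kb within 50 bp of the centre were divided by those 200 to 250 bp away, and a ratio over 1 marks a motif that is denser at the summit. In GC-poor promoter regions this ratio was 10.1 for CTCF (10 matches in the centre and 1 at the edges), 2.22 for the GC box (0.545 and 0.245 matches per kb), 2.02 for NF-kB (46 and 23 matches), 1.93 for ETS (21 and 11), 1.65 for EBF1 (72 and 44), and 1.46 for RUNX (78 and 54). It was 0.781 for GATA (0.478 and 0.611 matches per kb), 0.448 for the TATA element anywhere in the region (0.617 and 1.38 per kb) and 0.483 for the octamer (11 and 23). CCAAT was denser at the centre of GC-rich promoter regions, with a ratio of 3.09, and had a ratio of 1.04 in GC-poor ones. For the other motifs of the lymphocyte search above, the ratio in GC-poor promoter regions was 1.82 for MEF2 (9 and 5 matches) and 1.23 for AP-1 (51 and 42). It was 1.04 for the IRF and ETS composite, 1.01 for PU.1/SPIB and 0.856 for the ISRE core. Distal GC-poor regions also had ratios over 1 for the centre-dense motifs. These were 7.84 for CTCF, 3.06 for the GC box, 2.65 for NF-kB, 2.49 for ETS, 2.35 for EBF1 and 1.27 for RUNX. The centre of GC-poor regions was richer in GC than the edges (50.9% and 41.5% within 100 bp of a TSS, 48.1% and 42.8% farther away). The ratios were not corrected for this. Most of these counts are small and no test of them was made.

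Members were not spread evenly over the chromosomes. They made up 20.0% of the promoter regions of chromosome 18 (15.6 to 25.0), 19.4% of those of chromosome 4 (16.7 to 22.3) and 18.7% of those of chromosome 5 (16.3 to 21.3). The lowest shares were 2.01% on chromosome 22 (4 of 199, 0.550 to 5.07), 2.24% on chromosome 19 (17 of 759, 1.31 to 3.56) and 4.51% on chromosome 17 (26 of 577, 2.96 to 6.53). On the X chromosome the share was 12.5% (9.93 to 15.5), close to the 13.4% of all promoter regions.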

How the data were processed

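ATAC-seq libraries of 191 sorted, unstained GM12878 cells formed 1 group. Per the study's methods, the authors mapped read pairs to hg19, removed duplicate, low-quality and mitochondrial reads, called summits on the pooled cells at a q-value limit of 0.05 and kept the regions of lowest q. MACS2 (version not given in the sources used here), Picard 1.79 and Bowtie2 2.1.0 are named in the submitters' notes on processing. As deposited, each region carries a score, which is -log10 of the authors' q-value. It grows with the reads pooled at a summit, so cells with many fragments weigh more, and it is bounded below by the limit of the list. Any dependence of read recovery on GC content would enter both the score and the choice of regions, and was not measured.

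Coordinates are hg19, 1-based. Sequence was read from GRCh37, whose chromosome lengths match the list, and TSSs were all 146299 positions of protein-coding genes on chromosomes 1 to 22 and X in GENCODE 44 mapped to that build. No member held N, and 3 regions of the list did. CpG observed over expected was the number of CpG times the length over the product of C and G counts. A gene counted as having a region where any of its TSSs lay within 1 kb of the centre. Intervals are at 95%, exact binomial for shares and from binomial order statistics for medians. With 1 pooled list no test across samples could be made and none was made across regions, so differences are descriptions. Gene lists, motifs and members were chosen with earlier results of these data known. Named genes were the 15 strongest members, the 5 of lowest GC within 100 bp of a TSS and up to 4 per list by score, and those chosen otherwise are marked as such. Some genes and 1 sequence that this rule would name are not reported here.

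Alternatives changed the promoter window, the TSS set, the GC limits, the part of the region used for GC, the part of the list and the number of summits per called region. The functions were tested on simulated data. The work used scipy 1.17.1, pandas 2.3.3, numpy 2.4.6 and matplotlib 3.10.9 under Python 3.11.15.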

Additional observations from a re-analysis of the deposited data

How the results depend on the processing

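In every alternative the GC-poor promoter regions were fewer, weaker and farther from the TSS than the GC-rich ones. They also had the larger share of TATA matches and the larger share at a gene that also had a GC-rich region. The TATA difference has limits. In the main setting the GC-poor interval, 1.62% to 2.89%, held the 1.77% of all TSSs of protein-coding genes. For regions centred closest to a TSS, as given above, the intervals of both classes overlapped. In the window shifted upstream GC-poor regions also had the larger share, at 0.819% against 0.124%. Whether base composition accounts for the TATA difference was not tested. Of 48 values under 8 alternatives, 19 moved by less than counting error, or by under 1.5 times for counts, and 29 by more. The number of members was 1172 with a promoter window of 500 bp, 3824 with 2.5 kb, 982 with only the outermost TSS of each gene, 839 with GC limits of 45% and 65%, 1039 among regions at or above the median score of the list and 1340 with 1 summit for each called region. In these alternatives the median distance was 170.5, 824, 623, 507, 409 and 343 bp, in that order, and 535 bp with TSSs of protein-coding transcripts only, an alternative added after seeing the data. The median score moved to 31.6 with 500 bp and with the outermost TSS, 25.7 with the other GC limits and 55.8 at or above the median score of the list.

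The share at a gene that also had a GC-rich region was 56.8% with 500 bp, 66.6% with 2.5 kb, 47.7% with the outermost TSS, 41.5% with the other GC limits, 68.2% with GC content of the central part of the region, 58.2% at or above the median score, 52.2% with 1 summit per called region and 60.5% with protein-coding transcripts only. The share with a TATA match moved to 3.16% with the outermost TSS and 2.98% with the other GC limits, and the number of genes with only GC-poor regions, as a percent of all protein-coding genes, to 0.557% with those limits and 1.18% at or above the median score, against 1.91%. The share of genes with a GC-poor region changed sides of the share over all genes for 7 of the 24 gene lists. With GC limits of 45% and 65% (4.08% of all genes) it was lower at 2.86% for B cell, 3.51% for cytokine receptor, 3.92% for cytokine, 4.00% for MHC and 3.23% for housekeeping genes. MHC genes were also lower with GC content of the central part (8.00% against 8.54%), housekeeping genes with the outermost TSS (3.23% against 5.23%) and oxidative phosphorylation genes with 1 summit per called region (5.17% against 6.03%). T cell and NK cell genes, at 7.50%, were higher with 500 bp (5.34%), the outermost TSS (5.23%) and 1 summit per called region (6.03%). The leukocyte surface and signalling list stayed above all genes in all 8, between 22.1% and 54.4%. The lists were chosen with earlier results of these data known and the alternatives reuse the same regions, so this is no independent support. Fewer or more regions enter by the construction of each alternative. Leaving out a library was not possible, because the list gives no value per library. The weak end of the list was set by the authors, who kept only the regions of lowest q. The lowest score was held by 5.37% of GC-poor and 1.31% of GC-rich promoter regions. An effect of depth on that end was not tested.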
